A study of Mus musculus with 4 samples.

Results

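The comparison is of the prelimbic cortex of mice given AAV-CDYL with that of mice given AAV-GFP, taken as every row of the authors' table for this pair. It holds 15396 genes, of 27714 rows in the tables of the series and 19175 distinct gene identifiers. The series measured RNA in the prelimbic cortex, a medial prefrontal area, in 4 samples. Of these, 2 belong to the AAV pair and 2 to a social defeat experiment that is not described here. Both AAV groups were C57BL/6 mice aged 8 weeks, with 1 library per group. The AAV-GFP group received adeno-associated virus expressing green fluorescent protein, and the AAV-CDYL group received the same kind of virus expressing CDYL. Promoter, serotype, dose and time after injection were not given in the sources used here, nor was whether a library came from 1 mouse or a pool. The question is how transcript levels compare once CDYL is overexpressed there.

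CDYL, chromodomain Y-like protein, is a chromatin reader and corepressor that binds repressive histone methylation and works with histone methyltransferases such as G9a and the Polycomb complex PRC2, and with the neuronal gene repressor REST. Cortex is a mixture of neurons, astrocytes, oligodendrocytes, microglia and vessel cells, each with its own genes. Interferons bind receptors that signal through JAK kinases to STAT and IRF factors, which bind short promoter elements and switch on antiviral and antigen presentation genes.

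Promoters that hold the letters read by STAT and IRF factors are shown first. They are those of the 4 guanylate-binding protein and IRG genes, the 3 antiviral effectors and the 1 antigen gene with the largest differences among the members of these lists whose promoter held a match; genes with larger differences but no match or no promoter held, such as Cd74, are not shown. Sequences are from RefSeq (GRCm38.p6), on the strand of the gene, 5′ to 3′. Capitals mark the core of the interferon-stimulated response element (ISRE), GAAA, any 2 bases, then GAAA, which reads TTTC, any 2 bases, then TTTC where the core is on the opposite strand; matches can overlap one another, as in Irgm1 and Bst2.
Gbp2 (chr3:142620574-142620643, plus strand): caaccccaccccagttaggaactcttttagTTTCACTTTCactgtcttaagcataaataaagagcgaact
Tgtp1 (chr11:48992284-48992353, minus strand): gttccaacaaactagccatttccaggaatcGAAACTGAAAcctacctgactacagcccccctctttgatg
Irgm1 (chr11:48871421-48871480, minus strand): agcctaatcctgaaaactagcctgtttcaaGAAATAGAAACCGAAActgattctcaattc
Igtp (chr11:58199492-58199555, plus strand): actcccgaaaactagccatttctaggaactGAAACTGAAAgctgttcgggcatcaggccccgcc
Bst2 (chr8:71537557-71537632, minus strand): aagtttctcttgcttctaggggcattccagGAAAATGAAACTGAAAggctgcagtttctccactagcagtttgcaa
Ifit3 (chr19:34583343-34583446, plus strand): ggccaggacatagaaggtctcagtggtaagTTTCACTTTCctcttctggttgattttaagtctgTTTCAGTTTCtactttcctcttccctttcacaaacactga
Ifit1 (chr19:34640755-34640843, plus strand): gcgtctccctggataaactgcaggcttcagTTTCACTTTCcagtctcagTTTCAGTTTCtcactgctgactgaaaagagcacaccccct
B2m (chr2:122147518-122147587, plus strand): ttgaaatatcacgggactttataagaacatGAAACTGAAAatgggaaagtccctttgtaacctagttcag
In Gbp2 the match lay 59 to 50 bases before the start, in Tgtp1 77 to 68 bases and in Igtp 34 to 25 bases. Irgm1, Bst2, Ifit3 and Ifit1 each held 2 matches. Over the 250 bases before the start, this core occurred in 936 of 27025 promoters of the table, or 3.46%. It occurred in 10 of the 12 guanylate-binding protein and IRG promoters held, and in 11 of the 23 held for antiviral effectors. Other lists varied, with 4 of 16 for STAT, IRF and JAK genes and 3 of 25 for synaptic adhesion genes. Immunoproteasome and peptide loading genes had 0 of 8, and complement genes 0 of 12. The promoter table held 5671 of the 8047 genes at the floor defined below, or 70.5%, so a comparison of motif shares between gene groups is void, and these counts describe only the promoters held. All 10 guanylate-binding protein and IRG holders and all 11 antiviral holders were higher. So were 18 of 19 and 31 of 32 members of these lists at the floor, so this does not set the holders apart. A match is a string of letters and not a binding site.

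The class II Y box, CTGATTGG on either strand (CCAATCAG on the other), is shown next because promoters of both antigen genes and cholesterol genes held it. Shown are the 4 antigen genes with the largest differences among its holders and the 3 cholesterol genes among them that passed the 1.5-fold rule defined below. Capitals mark the match.
H2-Aa (chr17:34287837-34287904, minus strand): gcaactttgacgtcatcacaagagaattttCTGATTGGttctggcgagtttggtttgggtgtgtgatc
H2-Eb1 (chr17:34305775-34305842, plus strand): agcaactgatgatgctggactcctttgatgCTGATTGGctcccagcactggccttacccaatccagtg
H2-Q7 (chr17:35439109-35439154, plus strand): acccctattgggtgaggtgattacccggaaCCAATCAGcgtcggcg
H2-D1 (chr17:35263011-35263078, plus strand): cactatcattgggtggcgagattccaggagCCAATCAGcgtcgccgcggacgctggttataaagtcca
Tm7sf2 (chr19:6067863-6067930, minus strand): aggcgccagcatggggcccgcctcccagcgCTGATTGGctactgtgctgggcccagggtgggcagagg
Idi1 (chr13:8885528-8885595, plus strand): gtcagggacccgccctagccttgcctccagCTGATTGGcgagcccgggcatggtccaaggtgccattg
Srebf1 (chr11:60210472-60210534, minus strand): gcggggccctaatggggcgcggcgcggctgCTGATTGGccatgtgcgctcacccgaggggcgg
It occurred in 1198 of the 27025 promoters (4.43%), in 7 of the 16 antigen gene promoters held and in 6 of the 17 held for cholesterol genes. These lists are not alone in this. The same letters occurred in 5 of the 16 promoters held for chaperones, 2 of 8 for immunoproteasome and peptide loading genes and 4 of 20 for cell cycle genes. All 7 antigen holders were higher, but so were all 21 antigen genes at the floor, so this does not set the holders apart. Of the 6 cholesterol holders, 2 were lower (Tm7sf2 and Idi1) and 1 was higher (Srebf1), while Ebp, Mvk and Sc5d did not pass the rule.

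Values are FPKM, fragment counts scaled by transcript length and library size, and the level in a single library has no replicate error. Only genes at least 1.25-fold apart are listed, so an absent gene has no value here. The counts and medians of every gene list therefore cover listed members only and leave out the absent ones. The size rule called a gene higher or lower at a 1.5-fold difference in FPKM + 1, among genes that reached 1 FPKM in either library (the floor); 7349 genes lay under it. Of 8047 genes at the floor, 2516 (31.3%) were higher with AAV-CDYL and 1159 (14.4%) were lower, and the median difference of all 8047 was 0.30. Subtracting that median, a shift of -0.30, turned the split to 1630 higher and 3572 lower. Genes under 1.25-fold are not listed, so that median does not estimate an offset between the libraries. Scaling listed genes to a common upper quartile, a shift of 0.09, gave 2850 higher and 803 lower. The balance of directions thus depends on the scaling, which listed genes alone cannot settle. A gene under 1 FPKM with AAV-GFP can only be higher. Genes that reached 1 FPKM with AAV-GFP are called expressed there; among these 6679, 1417 (21.2%) were higher and 1159 (17.4%) lower (median -0.32). The effective depth read from the steps of low values was 22600000 fragments for AAV-GFP and 23900000 for AAV-CDYL, and at 1 FPKM a 2 kb transcript had about 45.2 and 47.8 fragments, which gives counting errors of 14.9% and 14.5%.

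The targeted gene checks the labels. Cdyl (ENSMUSG00000059288, mm10) stood at 2.68 FPKM in the AAV-GFP library against 1052 in the AAV-CDYL one, which made it the 28th highest of the listed genes with AAV-CDYL, against rank 5334 with AAV-GFP. The table does not tell transcripts of the vector from those of the endogenous gene. The cortical neuron genes Slc17a7, a vesicular glutamate transporter (803 and 568), and Tbr1, a deep layer transcription factor (58.3 and 45.2), were listed well above the floor in both libraries.

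The differences were unequal in size between directions. Higher genes had a median fold of 2.16 on the FPKM + 1 scale and 56.6% of them reached 2-fold, while lower genes had a median fold of 1.66 and 12.5% of them did. At least 8-fold were 212 higher and 9 lower genes. The higher genes include antibody segments: all 111 immunoglobulin V segments at the floor were higher, with a median difference of 3.15. Of 140 immunoglobulin and T-cell receptor segments at the floor 136 were higher and 3 lower. Of these segments 128 were listed at 0 with AAV-GFP, so their direction is fixed by the floor. Their part of the 212 was not counted. Of the 20 genes lower by at least 4-fold, 2 were protein coding and 15 were listed at 0 with AAV-CDYL. The protein-coding ones include Notch4, a Notch receptor of endothelium, at 9.81 with AAV-GFP and 1.5 with AAV-CDYL. The plot of both libraries shows this asymmetry.

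**Figure D1:**
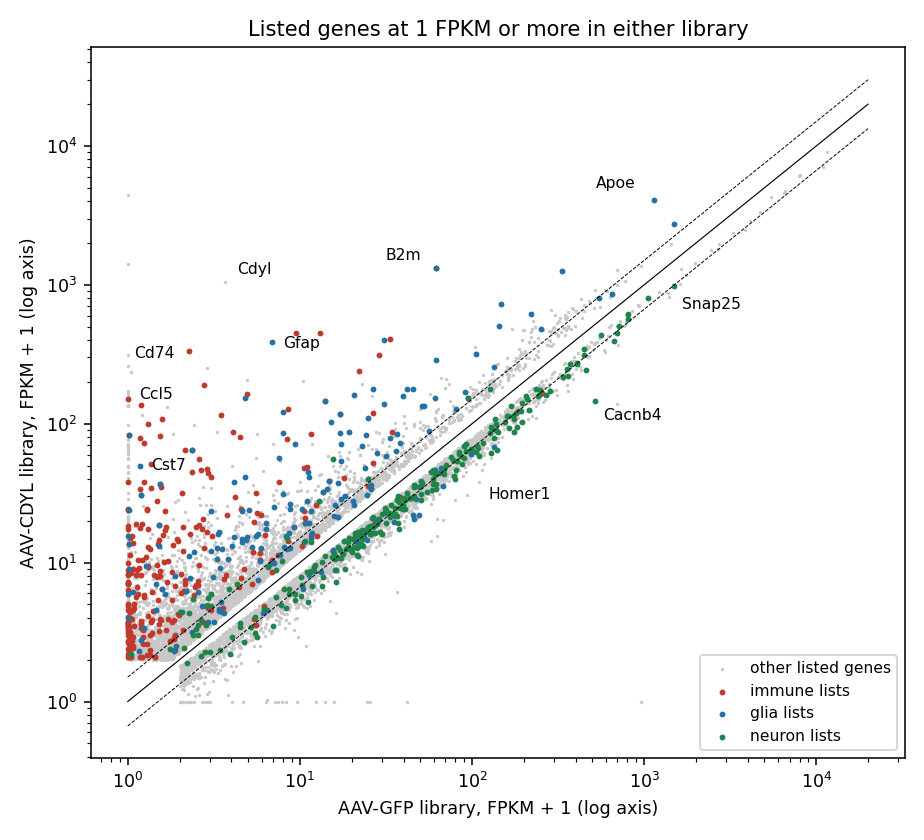
FPKM + 1 of each listed gene at the floor in the AAV-GFP library (x axis) and the AAV-CDYL library (y axis), both log axes, with members of the immune, glia and neuron lists coloured; a gene in several roles has the colour drawn last. The solid line marks equal values and the dashed lines 1.5-fold; the empty band around the solid line is where the table lists no gene. Neuron genes lie close below the band, and immune genes reach far above it, such as Ccl5 at 0 and 151.

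Nucleic acid sensors, which detect viral or misplaced nucleic acids, were higher for all 23 members at the floor, with a median of 2.50. All 7 expressed with AAV-GFP were higher as well. Zbp1, a Z-form nucleic acid sensor, was listed at 0 with AAV-GFP and stood at 23.4 with AAV-CDYL. The cytosolic RNA sensor Ifih1 stood at 1.09 and 11.2. Mavs, the mitochondrial adaptor of RNA sensing, stood at 2.03 and 3.56. All 3 passed the size rule.

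Of 17 STAT, IRF and JAK genes, 14 were higher and 0 lower (median 1.53); 10 of the 13 expressed with AAV-GFP were higher. Irf7, the amplifier of the interferon response, stood at 0.360 and 50.6. Irf2 (23.9 and 34.4) and Irf3 (9.28 and 12.2) did not pass the size rule. Interferon genes themselves were low: Ifnb1 and Ifng were listed at 0 with AAV-GFP and both lay under the floor.

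Guanylate-binding proteins and IRG GTPases, which attack the vacuoles of intracellular pathogens, were higher for 18 of 19 and lower for 1, with a median of 4.09. Of the 6 expressed with AAV-GFP, 5 were higher and 1 lower. Irgm1 stood at 3.07 and 86.8, and Igtp at 1.6 and 55.0; their promoter sequences are printed above. The exception was Irgq, at 34.3 and 20.9. Antiviral effectors were higher for 31 of 32, with a median of 2.84, and for 12 of the 13 expressed with AAV-GFP. Bst2, tetherin, which holds budding virus at the cell surface, stood at 3.92 and 163. Ifit3, which binds viral RNA complexes, stood at 2.50 and 114.

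Antigen presentation joined this pattern along the whole path. All 21 genes of the class I and class II list were higher, with a median of 3.11, as were all 9 expressed with AAV-GFP. B2m, the light chain of class I molecules, stood at 61.1 and 1325. Ciita, the class II master regulator, stood at 0.0493 and 1.1, near the floor. All 10 immunoproteasome and peptide loading genes were higher (median 1.83), 8 of them expressed with AAV-GFP. Psmb8, an inducible proteasome subunit, stood at 1.37 and 63.5, whereas of the 33 constitutive subunits only 3 were listed and none passed the size rule. The largest of those differences was that of Psmc4, at 56.1 and 74.3.

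Chemokines were split by their level with AAV-GFP. Of 22 at the floor, 19 were higher and 2 lower (median 2.07), but all 19 were under 1 FPKM with AAV-GFP, so their direction is fixed by the floor. Of the 3 at 1 FPKM or more, 2 were lower and 0 higher (median -0.59). Cx3cl1, the neuronal ligand of the microglial receptor Cx3cr1, stood at 254.9 and 166. Cxcl10, an interferon-induced T-cell attractant, stood at 0.0209 and 82.4, in a locus with 3 listed genes. Cx3cr1 stood at 13.8 and 37.6, so receptor and ligand differed in opposite directions.

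Complement was higher for 19 of 20 (median 2.40) and for 6 of the 7 expressed with AAV-GFP. C3, the central component, stood at 0.293 and 23.1. C1qc, which starts the classical pathway with C1qa and C1qb, stood at 21.1 and 237. Cd55, a regulator that limits complement, was the only member below AAV-GFP, at 4.39 and 2.94, and did not pass the size rule. Fc receptors and adaptors were higher for all 10 (median 2.33), such as Tyrobp, an adaptor of microglial receptors, at 13.04 and 144.

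Most genes of blood leukocytes were under 1 FPKM or listed at 0 with AAV-GFP. Of those at the floor, 6 of 24 T-cell genes and 5 of 16 monocyte, dendritic and neutrophil genes reached 1 FPKM there, but 0 of 7 cytotoxic and 0 of 8 B-cell and plasma-cell genes. Of 33 T-cell genes 12 were listed at 0 there, among them Cd3d, Cd3g, Cd8a and Cd8b1, and 10 of 15 cytotoxic and 5 of 20 B-cell genes. With AAV-CDYL, Cd8a stood at 2.68 and Gzmb, a killer cell protease, at 2.28. The summed FPKM of listed members, first with AAV-GFP and then with AAV-CDYL, was 35.4 and 152 for T-cell genes, 0.410 and 22.97 for cytotoxic genes, 2.18 and 104 for B-cell and plasma-cell genes, and 26.5 and 443 for monocyte, dendritic and neutrophil genes. Trbc2 made up most of the T-cell sum with AAV-GFP, at 24.5 and 33.8. Jchain, which joins antibody units, made up most of the B-cell sum with AAV-CDYL, at 0.183 and 77.6. In bulk tissue more cells of a type and more RNA per cell cannot be told apart, and the part of these leukocytes in the interferon and antigen results was not tested.

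Microglia genes were higher in both their homeostatic and reactive lists, with the higher median in the second. Of 16 homeostatic genes 14 were higher (median 1.36), and all 30 reactive and phagocyte genes were (median 2.32); 20 of the 30 were expressed with AAV-GFP. Tmem119, a marker of resident microglia, stood at 9.97 and 27.0. P2ry12, a purine receptor of resting microglia, stood at 23.4 and 29.7 and did not pass the size rule. Trem2, a lipid receptor of reactive microglia, stood at 8.33 and 70.7, and Cst7 at 0.172 and 48.5. Of 27 lysosomal genes 21 were higher (median 1.23), led by Ctss, a protease of antigen processing, at 29.96 and 401, while Psap, the saposin precursor, stood at 653 and 851 and was not called.

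Astrocyte genes showed the same order among listed members. Not listed were 10 of the 23 homeostatic genes and 3 of the 36 reactive ones, which have no value here. Of 13 homeostatic genes 9 were higher and 1 lower (median 0.69), and of 26 reactive genes 23 were higher and 0 lower (median 2.04; 12 of the 15 expressed with AAV-GFP). The reactive list shares Cxcl10, Iigp1, Psmb8, Gbp2 and H2-T23 with the immune lists, so its median is not separate from theirs. Cxcl10, Iigp1 and Psmb8 are among its 4 largest differences. Vim, an intermediate filament gene, stood at 7.0 and 121. Serpina3n, a protease inhibitor, stood at 6.94 and 84.7. Gjb6, a gap junction connexin, was lower, at 44.7 and 19.5. Gfap, in a locus with 7 listed genes, stood at 5.85 and 386.

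**Figure D2:**
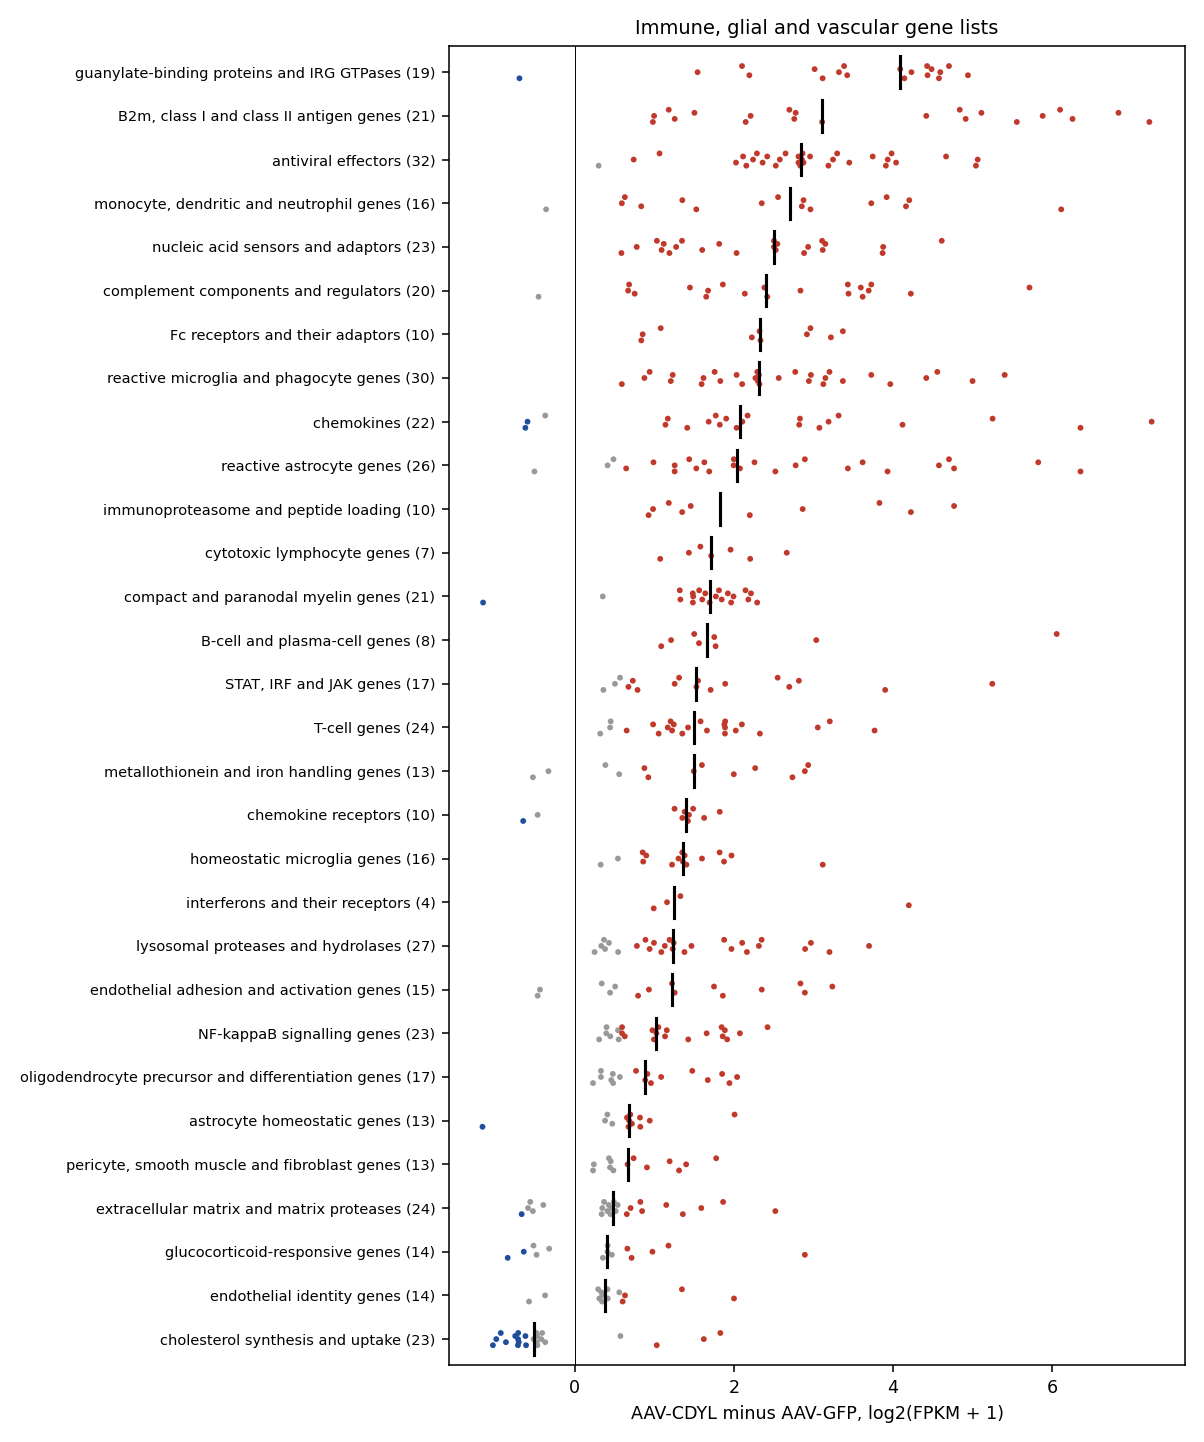
Differences in log2(FPKM + 1), AAV-CDYL minus AAV-GFP (x axis), for each gene at the floor in the immune, glial and vascular lists (rows, with the number of genes), in order of the list median, drawn as a black bar. Red points passed the 1.5-fold rule as higher, blue as lower, grey did not; the cholesterol list is the only one here with a median below 0, at -0.51.

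Myelin genes were mostly higher, while cholesterol genes, which oligodendrocytes use together with them, were more often lower than higher. Of 21 compact and paranodal myelin genes 19 were higher and 1 lower (median 1.70), all expressed with AAV-GFP. Mbp, a main protein of compact myelin, stood at 333 and 1267, and Mog, an outer myelin glycoprotein, at 6.95 and 30.05. The lower one was Cntnap1, the axonal partner at paranodes, at 48.0 and 21.1. Of 17 precursor and differentiation genes 10 were higher and 0 lower (median 0.89): Myrf, which drives myelin genes, stood at 3.64 and 13.8, and the precursor marker Cspg4 at 2.18 and 2.73 was not called, with a difference of 0.23 that turned to -0.07 after median centring.

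Of 23 cholesterol genes, 11 were lower and 3 higher (median -0.51). Hmgcs1, an early enzyme of the mevalonate path, stood at 133 and 66.7. Msmo1, a sterol demethylation enzyme, stood at 44.2 and 21.2, and Srebf2, the transcription factor of the path, at 67.2 and 34.9. The 3 higher genes were Apoe, a lipid carrier (1145 and 4072), Abca1, a cholesterol exporter (3.58 and 13.1), and Srebf1, which acts in fatty acid synthesis (10.6 and 22.7). None of these 3 is a synthesis enzyme.

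**Figure D3:**
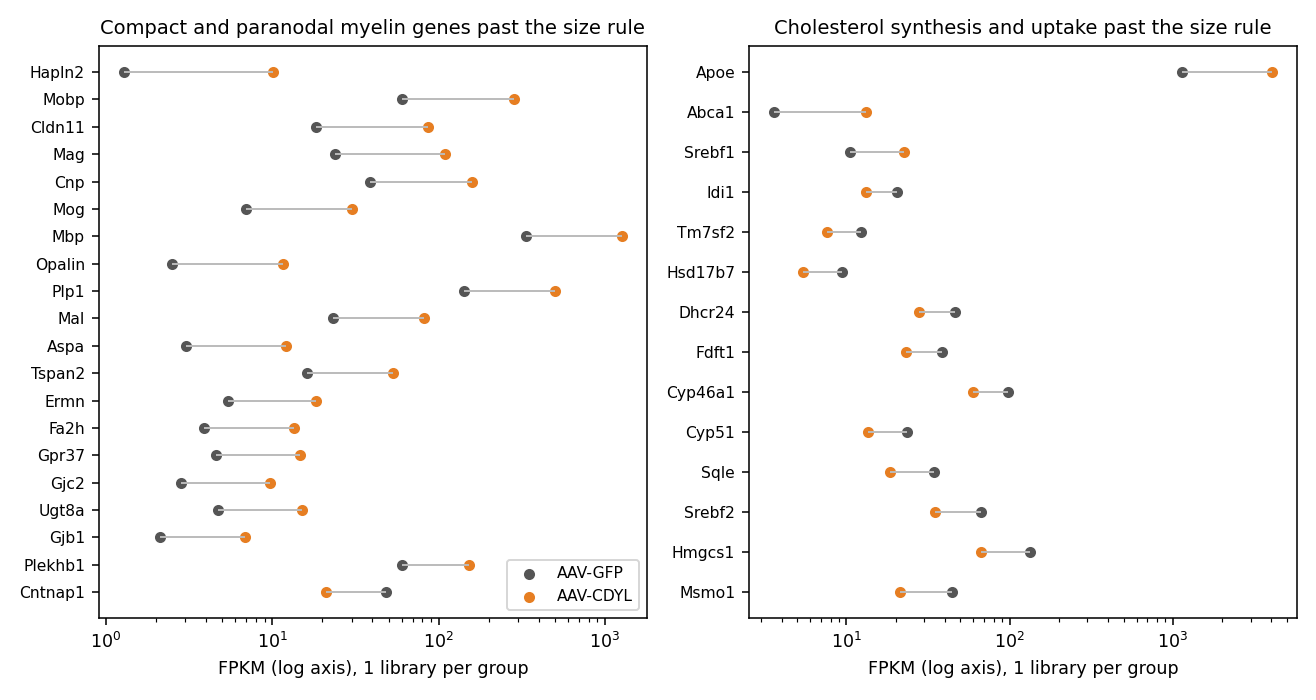
FPKM on a log axis of each gene that passed the size rule in the myelin list (left) and the cholesterol list (right), with grey points for AAV-GFP, orange points for AAV-CDYL and a line joining both. In the myelin list 19 genes lie higher with AAV-CDYL and only Cntnap1 lies lower; in the cholesterol list 3 lie higher and 11 lower.

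Vascular lists were mixed. Of 26 endothelial identity genes 12 were not listed. Of the 14 listed, 4 were higher and 0 lower (median 0.38). All 14 were expressed with AAV-GFP, and of all genes expressed there 21.2% were higher, beside 31.3% of all genes at the floor. Of 15 adhesion and activation genes 10 were higher (median 1.22), and of the 10 expressed with AAV-GFP 7 were. Of 13 pericyte, smooth muscle and fibroblast genes 7 were higher and 0 lower (median 0.67), and of the 9 expressed with AAV-GFP 5 were higher. Icam1, which leukocytes bind on vessels, stood at 0.487 and 13.02, and Vcam1, another such ligand, at 5.44 and 20.7. Cldn5, the tight junction claudin of brain vessels, stood at 26.8 and 42.1. Of 24 matrix genes 9 were higher and 1 lower (median 0.48), with Timp1, an inhibitor of matrix proteases, at 0.0731 and 5.16. Of the 18 matrix genes expressed with AAV-GFP 6 were higher and 1 lower. Icam1 and Timp1 were under 1 FPKM with AAV-GFP, so they could only be higher.

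Neuronal lists leaned the other way, by small and similar amounts. Over 243 genes of the neuron lists at the floor, 98 were lower and 15 higher (median -0.52). All genes at the floor had 14.4% lower, and those expressed with AAV-GFP had 17.4%. The median AAV-GFP level of the neuron list genes was 30.3 FPKM, and all genes at 20 to 50 FPKM there had 24.8% lower. Of 33 synaptic adhesion genes 15 were lower and 0 higher (median -0.55). Adgrl3, a latrophilin receptor, stood at 127 and 61.0, and Nrxn2, a presynaptic neurexin, at 155 and 102. All 33 lay below AAV-GFP.

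At the active zone, 14 of 28 genes were lower and 1 higher (median -0.58). Rims3, a scaffold of vesicle release sites, stood at 36.7 and 16.5. Snap25, a SNARE protein, stood at 1492 and 988. The exception was Ppfia4, a liprin, at 11.9 and 27.0. Of 26 kinases and phosphatases of synaptic signalling 14 were lower and 0 higher (median -0.60), with Prkcb, a protein kinase C, at 459 and 241, and Camk2a, the postsynaptic calcium kinase, at 665 and 395. Of 27 cytoskeleton and transport genes 10 were lower and 0 higher (median -0.51), with the neurofilament gene Nefm at 78.9 and 39.1.

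Among calcium channel subunits 7 of 19 were lower and 2 higher (median -0.51). Cacnb4, an auxiliary subunit, had the largest negative difference of any neuronal list member, at 521 and 146, in a locus with 2 listed genes. Itpr1, the calcium release channel of neurons, stood at 138 and 63.5, while its relative Itpr2 was higher, at 2.03 and 4.90. Of 23 inward rectifier, K2P, HCN and calcium-activated channels 11 were lower and 4 higher (median -0.53). Kcnma1, the large-conductance channel, stood at 36.2 and 18.4. The 4 higher were Kcnk6 (1.02 and 3.43), Kcnn4 (0.0488 and 1.18), Kcnk13 (1.27 and 3.35) and Kcnj10, the astrocyte potassium channel (23.9 and 38.9). Kcnn4 was under 1 FPKM with AAV-GFP, so it could only be higher. Of the 21 expressed there 3 were higher and 11 lower.

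Of the neuron lists, the layer and interneuron lists had the medians nearest 0. Only 12 of 26 layer genes and 19 of 27 interneuron genes were listed, and the rest have no value here. Of 12 layer genes 4 were lower and 1 higher (median -0.38), and of 19 interneuron genes 5 were lower and 0 higher (median -0.40). Fezf2, a deep layer transcription factor, stood at 49.7 and 27.0. Pvalb, of fast-spiking interneurons, stood at 21.7 and 12.6, while Npy stood at 125 and 178 and was not called. Of 13 cadherins and protocadherins 5 were lower (median -0.58), with Cdh22 at 15.2 and 6.25.

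**Figure D4:**
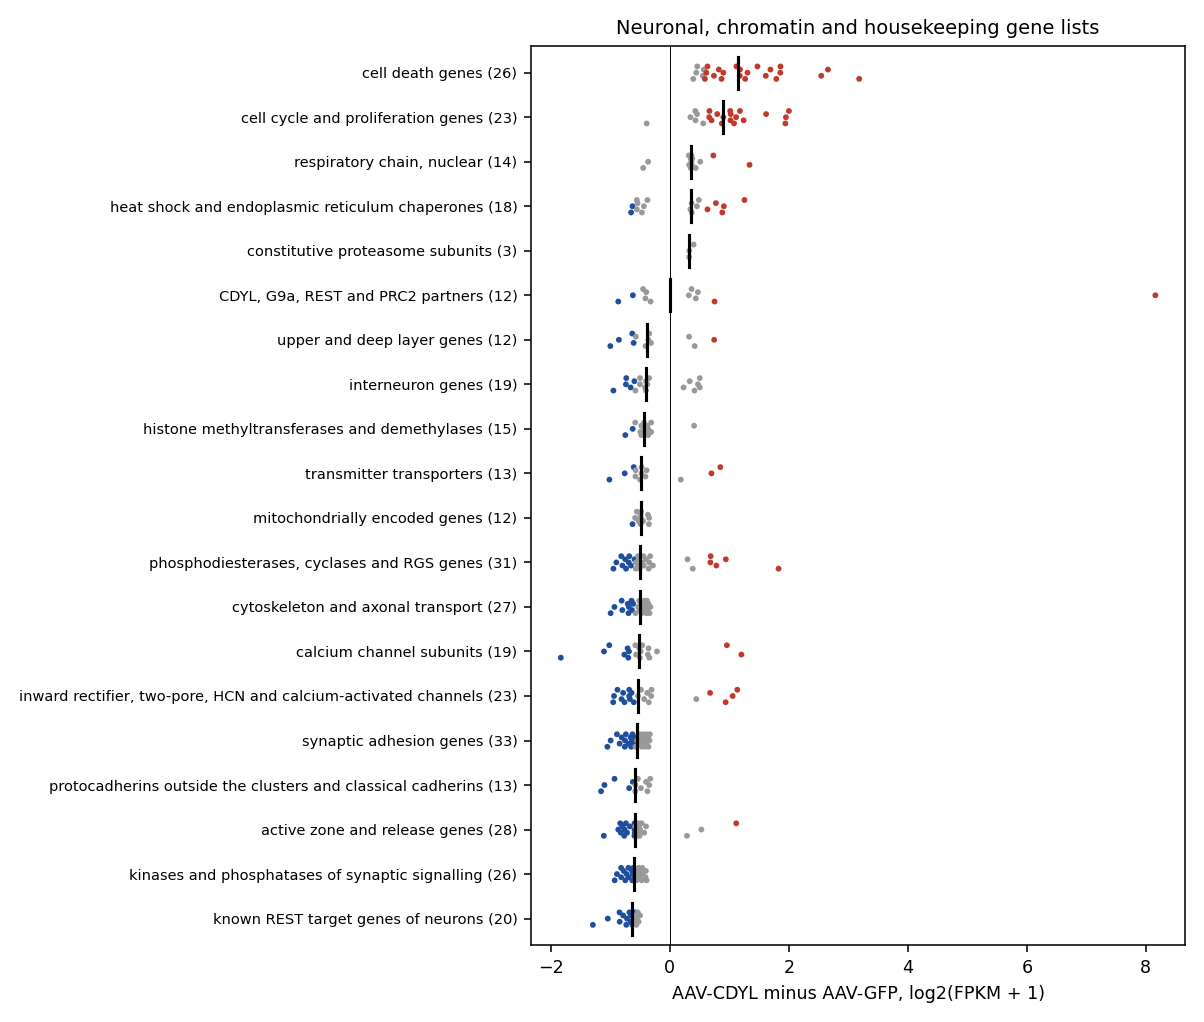
Differences in log2(FPKM + 1), AAV-CDYL minus AAV-GFP (x axis), for each gene at the floor in the neuronal, chromatin and housekeeping lists (rows, with the number of genes), in order of the list median, drawn as a black bar. Red points passed the 1.5-fold rule as higher, blue as lower, grey did not; neuronal medians lie between -0.60 and -0.38, and the point at 8.16 is Cdyl.

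CDYL works with REST, so the REST targets were read separately. Of 20 known neuronal targets 13 were lower and 0 higher (median -0.64), and all were expressed with AAV-GFP. All genes expressed there had 17.4% lower, those at 50 to 100 FPKM 32.6% and those at 100 FPKM or more 27.6%. The parts of REST and of level in this count were not tested. Grin2a, an NMDA receptor subunit, stood at 24.2 and 9.27, and Syp, synaptophysin, at 1615 and 1008. Neuron lists without this label had a median of -0.52, and no test sets the 2 apart; some genes are in both. The neuropeptide precursor gene Vgf (184 and 124) and the neurotrophin gene Bdnf (12.5 and 8.57), both on this list, were not called. Both passed the rule as lower after median centring (-0.87 and -0.80), a shift that does not estimate an offset between the libraries. Outside it, the sodium channel gene Scn8a was lower (47.9 and 27.0). Rhoa, a small GTPase, was not called (68.4 and 91.4).

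Of 35 CDYL, G9a, REST and PRC2 partners, Cdyl included, 21 were not listed. Of the 12 at the floor 2 were higher, Cdyl and Rest, and 2 lower. Of the 11 expressed with AAV-GFP 1 was higher, Cdyl itself, and 2 were lower. Rest stood at 0.334 and 1.25, and under 1 FPKM with AAV-GFP it could only be higher. Cdyl2, the paralog, stood at 8.99 and 4.48, and the H3K9 methyltransferase gene Suv39h2 at 2.66 and 1.38. Of 15 histone methyltransferases and demethylases 2 were lower and 0 higher (median -0.43): Setd7 (27.2 and 15.8) and Ash1l (21.9 and 13.9).

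Proliferation, death and inflammatory signalling genes were higher from low levels. Of 23 cell cycle genes 17 were higher (median 0.90), but of the 9 expressed with AAV-GFP 4 were. Top2a, a topoisomerase of dividing cells, stood at 0.0992 and 3.22. Of 26 cell death genes 21 were higher (median 1.15; 10 of 14 expressed with AAV-GFP), with Pycard, the inflammasome adaptor, at 1.85 and 24.9. Of 23 NF-kappaB genes 17 were higher (median 1.03; 6 of 10 expressed with AAV-GFP), with Nfkb1 at 4.37 and 11.0.

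Metabolic lists were less uniform. Of 13 metallothionein and iron genes 9 were higher (median 1.5): Hmox1, which degrades heme, stood at 2.36 and 15.2, while the transferrin receptor gene Tfrc, at 27.4 and 18.8, was not called. Of 12 mitochondrially encoded genes all lay below AAV-GFP, and 1 passed the rule, mt-Atp8 at 10950 and 7090. Of 74 nuclear respiratory chain genes only 14 were listed, 2 of them higher. Of 18 chaperones 5 were higher and 2 lower (median 0.36), with Cryab, a small heat shock protein of glia, at 26.7 and 65.1. Of the 37 chaperones 19 were not listed. The glucocorticoid-responsive list had 5 higher and 2 lower among 14 (median 0.41). All genes at the floor had 31.3% higher and 14.4% lower, and those expressed with AAV-GFP 21.2% and 17.4%. The chaperone and glucocorticoid counts lie near these shares.

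Across the table, level and gene length moved with the direction of difference. Protein-coding genes expressed with AAV-GFP were put in 4 equal classes of gene length. The shortest class (up to 11.0 kb) had 29.7% higher and 12% lower, and the longest class (76.2 kb and more) had 10.9% higher and 28.4% lower. Genes at 1 to 2 FPKM with AAV-GFP had 36.4% higher and 7.3% lower, and those at 50 to 100 FPKM had 7.72% higher and 32.6% lower. The trend with level is in part built in. The AAV-GFP value sets the class and also enters the difference, and the pseudocount makes a lower call harder at low levels. How much of the trend this makes up was not tested. Median gene length was 65.8 kb for the neuron lists and 11.4 kb for the immune lists, so list, length and level move together, and their separate parts were not tested.

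**Figure D5:**
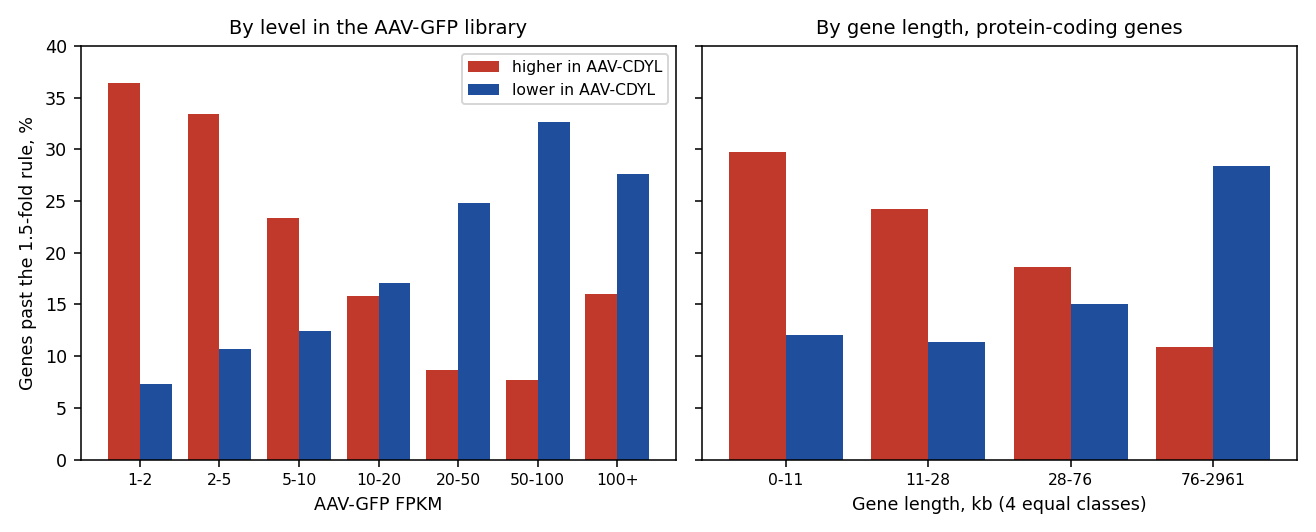
Share of genes (%, bars from 0) past the 1.5-fold rule as higher (red) or lower (blue) with AAV-CDYL, by FPKM class with AAV-GFP (left) and by 4 equal classes of gene length for protein-coding genes expressed with AAV-GFP (right). The blue bars overtake the red ones from 10 to 20 FPKM upward and in the longest class. The AAV-GFP value sets the classes on the left and also enters the difference, so that trend is in part built in.

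The authors' deposited table calls 147 genes higher and 0 lower at a q-value under 0.05, and 112 of the 147 were listed at 0 with AAV-GFP. Of the 147, 45 were immunoglobulin or T-cell receptor segments and 57 were members of the gene lists, among them C1qa and Mobp. No member of a neuron list had such a value. These values compare 1 library with another and carry no replicate error.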

How the data were processed

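RNA from the prelimbic cortex of the AAV-GFP and AAV-CDYL groups was compared, 1 library each. Per the submitters' processing notes, the authors made the FPKM values with Cuffdiff on mm10, and its version, the aligner and the gene annotation were not given in the sources used here. The p-values, q-values and log2 ratios in the table were deposited by the authors; the ratios were not used. Per the labels' protocols, the libraries came from a NEBNext Ultra kit. Every per-sample column was mapped to a sample, with 0 left over.

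Differences were taken as log2(FPKM + 1) with a pseudocount of 1; values under 0.0001 were read as 0. With 1 library per group no test was possible and no p-value was computed. A gene passed the size rule at 1.5-fold, among genes at 1 FPKM or more in either library. The members and the 50 gene lists were chosen with earlier results of these data known. Genes to be named were Cdyl, Vgf, Bdnf, Scn8a and Rhoa, the 12 genes per direction that differed most at a mean of 5 FPKM or more, and per list up to 4 with the largest difference, 2 with the highest level and 2 against the list's direction; other members named were chosen after their values were seen. About 33.3% of genes lay in a Cuffdiff locus with other listed genes, so their fragments, and those of paralogs and overlapping genes, cannot be assigned with certainty. Depth was read from genes with 1 transcript of 3 to 20 kb, where 95.0% and 93.6% of low values lay within 0.15 of a whole step. Gene lengths came from GENCODE M21 and promoters from RefSeq. The 10 alternatives were pseudocounts of 0.1 and 0.5, no floor, a floor of 5 FPKM, a floor on the mean or on AAV-GFP alone, a 2-fold rule, median centring, upper quartile scaling, and leaving out genes in shared loci. Work used Python 3.11.15, numpy 2.4.6, pandas 2.3.3 and matplotlib 3.10.9. Some single-gene results are not reported here.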

Additional observations from a re-analysis of the deposited data

How the results depend on the processing

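With a floor of 5 FPKM, 1416 genes were higher and 958 lower, and with the floor set on the AAV-GFP library alone 1417 and 1159, so the share of called genes that were higher went from 68.5% to 59.6% and 55.0%. A 2-fold rule gave 1424 higher and 145 lower, and centring on the median of listed genes, a shift of -0.30, gave 1630 higher and 3572 lower. Scaling to a common upper quartile, a shift of 0.09, gave 2850 and 803. The chemokine median turned to -0.59 with the floor on the AAV-GFP library. The median of the CDYL partner list, near 0, became 0.28 with no floor, 0.08 with upper quartile scaling and 0.01 without shared loci. Of 861 list members at the floor, 8 changed sign after median centring. None of these 8 had passed the size rule, and none could have, as the shift of -0.30 is smaller than a 1.5-fold difference. The other 9 alternatives could not change a sign, so they say nothing about direction. Changes of pseudocount, floor, fold or loci leave the sign as it is. The upper quartile shift of 0.09 is smaller than the 1.25-fold gap between listed values. Of the 273 genes chosen by the naming rule, 74 no longer passed with a 2-fold rule, 13 no longer passed and 20 newly passed after centring, and 16 and 4 after upper quartile scaling. No paired analysis was possible because each group has 1 library, and no replicate could be left out. Depth limits low genes: counting error near 1 FPKM is about 14.9% for a 2 kb transcript and covers counting only.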
